A study of Mus musculus with 6 samples.

Results

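The IL-1 and IL-36 cytokine family was examined in RNA sequencing of whole skin, through 10 genes taken by symbol from the 23951 gene symbols of the deposited table. They are the ligand genes Il1a, Il1b, Il18, Il33, Il1f6, Il1f8 and Il1f9, the antagonist genes Il1rn and Il1f5, and the receptor gene Il1rl2. The table uses the older Il1f symbols: Il1f6, Il1f8 and Il1f9 encode IL-36α, IL-36β and IL-36γ, and Il1f5 encodes the IL-36 receptor antagonist. All 10 were above 0 in every mouse and all 10 passed the filter on low values. Skin came from 3 mice labelled JunB dep and 3 mice labelled JunB +/+, called controls here. The mice were littermates of strain C57Bl/6, aged 6 to 7 months by the labels. In JunB dep mice a Cre recombinase under the keratin 5 promoter deletes Junb, a subunit of the transcription factor AP-1, in keratin 5-expressing epithelium, so the other cells of the skin keep the gene. The study took lesional skin from the JunB dep mice, and whole skin also holds dermis, vessels, fat, muscle and immune cells.

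Cytokines of this family are alarm signals. Keratinocytes store several of them and release them on injury or infection, while myeloid cells make most of the IL-1β of inflamed tissue. IL-1α and IL-1β act through the receptor Il1r1, the IL-36 cytokines through Il1rl2, IL-18 through Il18r1 and IL-33 through Il1rl1. All signal through the adaptor Myd88 to NF-κB. Il1rn and Il1f5 encode proteins that occupy a receptor without activating it, Il1rn in the IL-1 branch and Il1f5 in the IL-36 branch, while IL-18 is held by the binding protein Il18bp. IL-36 in skin is best known from pustular psoriasis and from responses to Staphylococcus aureus, IL-33 from type 2 inflammation.

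The IL-36 genes and Il1rn lie together. On mm9, 5 of the 10 genes span 198.3 kb of chromosome 2 in the order Il1f8 (24008681 to 24016039), Il1f9 (24041996 to 24049088), Il1f6 (24070938 to 24081222), Il1f5 (24132474 to 24138946) and Il1rn (24192373 to 24207014), all on the plus strand. Il1a (129125346 to 129135708) and Il1b (129190306 to 129196875) lie farther along chromosome 2, on the minus strand, within 71.5 kb. Il18 lies on chromosome 9 (50383378 to 50389942), Il33 on chromosome 19 (29999604 to 30035194) and Il1rl2 on chromosome 1 (40381472 to 40422316). The RefSeq promoter of Il18 that was searched ends at 50362804, so its start site lies upstream of the span given here. Il1a overlaps Gm14023 and Il1b overlaps Gm14047 on the opposite strand, and no source used here states whether the FPKM step used strand.

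Because Junb encodes an AP-1 subunit, the 250 bases before each RefSeq start site were searched for the AP-1 element TGANTCA, which reads the same on both strands, and for TATAAA on the strand of the gene. The RefSeq promoter table used here gave 13 promoters for 9 of the 10 genes, without Il1f6. The AP-1 element stood in 3 of the 13, those of Il1a, Il1f8 and the most upstream start of Il1rn, and in 6.75% of all 32851 promoters of that length. TATAAA stood in 4 of the 13, those of Il1a, Il1b and both starts of Il33, and in 7.59% of all promoters. The elements did not overlap each other. Positions count back from -1, the last base before the start site. In Il1a the AP-1 element begins at -12 and TATAAA at -32, in Il1b TATAAA begins at -31, in Il1rn the AP-1 element begins at -141 and in Il1f8 at -236. Il1f9, a gene that was higher in every JunB dep mouse, had neither. These 5 are shown 5′ to 3′ from RefSeq, placed on mm9 by exact match, with both elements in capitals, since they carry the AP-1 elements of the family and set them beside promoters without. A match is a string of letters and not a measured binding site.
Il1a (chr2:129135709-129135958, minus strand): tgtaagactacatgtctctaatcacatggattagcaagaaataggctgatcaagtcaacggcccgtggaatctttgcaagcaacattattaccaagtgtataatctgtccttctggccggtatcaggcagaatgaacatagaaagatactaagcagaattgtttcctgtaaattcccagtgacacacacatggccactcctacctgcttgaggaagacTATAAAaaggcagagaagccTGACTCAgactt
Il1b (chr2:129196876-129197125, minus strand): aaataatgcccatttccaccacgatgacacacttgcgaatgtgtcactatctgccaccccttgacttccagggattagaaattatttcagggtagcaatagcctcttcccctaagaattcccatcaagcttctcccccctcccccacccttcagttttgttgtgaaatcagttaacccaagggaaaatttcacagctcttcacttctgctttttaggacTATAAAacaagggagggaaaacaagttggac
Il1f9 (chr2:24041746-24041995, plus strand): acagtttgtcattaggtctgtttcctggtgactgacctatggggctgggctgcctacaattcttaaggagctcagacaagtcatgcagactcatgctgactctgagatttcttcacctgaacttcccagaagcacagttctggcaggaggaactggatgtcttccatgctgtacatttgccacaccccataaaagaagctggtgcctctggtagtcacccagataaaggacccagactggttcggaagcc
Il1f8 (chr2:24008442-24008691, plus strand): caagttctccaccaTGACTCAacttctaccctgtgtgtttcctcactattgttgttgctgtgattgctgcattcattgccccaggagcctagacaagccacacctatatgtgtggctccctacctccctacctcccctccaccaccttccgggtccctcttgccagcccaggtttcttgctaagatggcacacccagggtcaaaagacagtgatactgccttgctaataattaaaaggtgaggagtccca
Il1rn (chr2:24192130-24192379, plus strand): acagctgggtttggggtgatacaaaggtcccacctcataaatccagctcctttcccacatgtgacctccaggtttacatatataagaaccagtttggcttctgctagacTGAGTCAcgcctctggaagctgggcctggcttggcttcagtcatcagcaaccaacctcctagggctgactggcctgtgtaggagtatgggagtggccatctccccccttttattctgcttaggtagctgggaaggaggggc

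Values are FPKM, by definition fragments per kilobase of transcript scaled to the mapped fragments of each library, so levels can be compared between genes per length. Whether they were also scaled between libraries is not stated in the sources used here. They sum to 481078 to 630363 per mouse, and the number of reads is unknown. Differences were tested with limma on log2(FPKM + 0.5) over 17021 genes, a scale that understates the change of low genes. For Junb itself, control replicates 0, 1 and 2 gave 59.3, 72.4 and 56.9 FPKM. JunB dep replicates 1 and 2 gave 42.8 and 28.0 FPKM, but 129.6 FPKM, above every control, was found in the library labelled JunB dep replicate 0. Cells outside keratin 5-expressing epithelium keep Junb, so its level in whole skin does not show whether the label holds, which was not tested. That library also held 5 mucosal epithelium markers, Krt4, Krt13, Krt76, Sprr3 and Pax9, at a summed 3798 FPKM, where the other libraries held 0.394 to 1.41 FPKM. Sprr3 was listed at 0 in control replicate 2 and JunB dep replicate 1, Pax9 in JunB dep replicates 1 and 2, and Krt13 in JunB dep replicate 2. Of 10 keratinocyte markers this library held the lowest value of 5, namely Krt14, Krt15, Col17a1, Lor and Dsg1a, and the highest of 3, namely Krt5, Krt1 and Ivl. Krt15 was at 80.7 FPKM against a control mean of 1746 FPKM and Krt1 at 4466 FPKM against 713 FPKM. All 10 were above 0 in every other library, while Krt14 was listed at 0 in this one, as were 3 of 4 wound keratinocyte markers, Krt6a, Krt6b and Krt16, beside Krt17 at 4025 FPKM. A listed 0 can be a failed estimate. The 10 skeletal muscle markers summed to 1458 to 3517 FPKM in the JunB dep mice against 15098 to 19292 FPKM in controls, and the 6 liver markers to 1694 FPKM in control replicate 0 against at most 29.5 FPKM elsewhere. The part of these differences in the results was not tested, and the fold changes and list medians are given with and without the library labelled JunB dep replicate 0. In bulk skin, fewer cells of a type and less RNA per cell cannot be told apart.

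Among the 10 genes, Il1f6, Il1f9 and Il1a were higher in all 3 JunB dep mice than in every control, a pattern held by 5.62% of the tested genes. None of the 10 lay below every control in all 3 JunB dep mice, against 9.16% of tested genes. Leaving out the library labelled JunB dep replicate 0, 6 of the 10 separated the groups. Il1f6, Il1f9 and Il1a lay above every control, as they had to, against 11.1% of tested genes, and Il1b, Il18 and Il33 lay below every control, against 13.0%. In the library labelled JunB dep replicate 0, 9 of the 10 were more than 1 log2 unit above the control mean, against 11.5% of tested genes. In replicates 1 and 2 the number was 1 each, Il1f6 both times, against 5.67% and 2.66% of tested genes. No member passed the limma test at an adjusted p of 0.05, where 1.38% of tested genes did, all of them lower in JunB dep skin. That share was not stable, since no gene passed without any 1 control or without JunB dep replicate 1. Over all 6 mice, at an unadjusted p below 0.05, 1 of 10 was higher, Il1f6, against 1.43% of tested genes. None was lower, against 6.13%. Without the library labelled JunB dep replicate 0, no member passed the adjusted threshold either. In that fit 0.798% of tested genes did, 10 of them higher and 125 lower. In that fit Il1f6 and Il1a were higher at an unadjusted p below 0.05, against 2.03% of tested genes, and Il33 was lower, against 6.03%. Setting aside control replicate 0, which held the liver markers, Il1f5 joined Il1f6, Il1f9 and Il1a above the remaining controls, against 7.7% of tested genes over all 3 JunB dep mice and 14.2% over replicates 1 and 2. The median log2 fold change of the 10 genes was 1.00, beside 0.03 over all tested genes, and it was 0.05 without the library labelled JunB dep replicate 0.

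**Figure D1:**
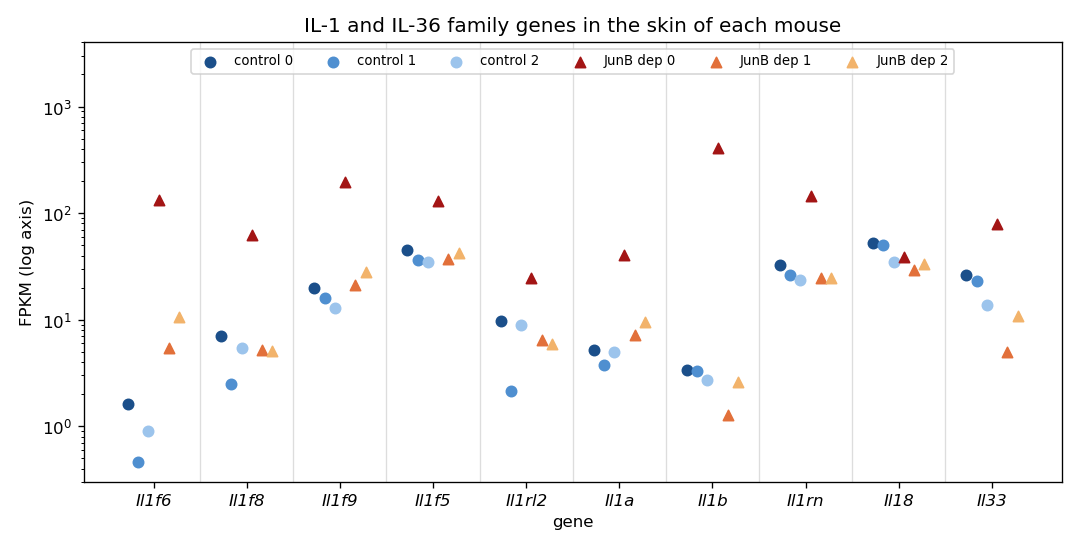
FPKM of the 10 family genes on a log axis, with circles for the 3 control mice and triangles for the 3 JunB dep mice, darkest for replicate 0. The darkest triangle is the highest point for every gene but Il18, and for Il1f6, Il1f9 and Il1a all 3 triangles lie above all 3 circles.

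Il1f6, the gene of IL-36α, had the clearest separation of the family. Control replicates 0, 1 and 2 had 1.62, 0.464 and 0.910 FPKM of it, the lowest level of the 10 genes in every control. The library labelled JunB dep replicate 0 had 133.7 FPKM, JunB dep replicate 1 had 5.43 FPKM and replicate 2 had 10.7 FPKM. The lowest JunB dep value was thus 3.36 times the highest control value. Set against the control mean of 0.997 ± 0.581 FPKM (SD, n = 3), the 3 JunB dep mice were at 134, 5.45 and 10.7 times that level. The log2 fold change was 3.86 (standard error 1.16, 95% interval 1.05 to 6.68, adjusted p = 0.377 from limma), higher in 3 of 3 mice. Without the library labelled JunB dep replicate 0 it was 2.52 (standard error 0.45, interval 1.36 to 3.67, adjusted p = 0.122 from limma). The adjusted p ranged from 0.122 to 0.825 over 15 alternatives. The interval of Il1f6 lay above 0 in both fits, although the gene did not pass correction over all genes in either. Without control replicate 1 the log2 fold change was 3.58 with a standard error of 1.41, and no member then had an unadjusted p below 0.05.

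Il1f9, the gene of IL-36γ, had the highest FPKM of the 3 IL-36 agonist genes in every mouse. Controls had 19.7, 16.0 and 12.9 FPKM of it, and JunB dep replicates 0, 1 and 2 had 198, 21.0 and 28.2 FPKM. The groups did not overlap, but JunB dep replicate 1 exceeded the highest control by a factor of 1.06. The log2 fold change was 1.59 (standard error 0.84, interval -0.45 to 3.63, adjusted p = 0.722 from limma), and 0.59 (interval -0.02 to 1.21) without the library labelled JunB dep replicate 0.

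Il1f8, the gene of IL-36β, behaved differently. Controls had 7.08, 2.50 and 5.49 FPKM, the library labelled JunB dep replicate 0 had 62.7 FPKM, and JunB dep replicates 1 and 2 had 5.20 and 5.08 FPKM. Those last values lie inside the control range. The log2 fold change of Il1f8 was 1.29 (interval -1.16 to 3.75, adjusted p = 0.722 from limma). It was 0.13 (interval -0.96 to 1.23) without that library. The 3 agonist genes therefore shared a high value in a single library, and in the other JunB dep mice Il1f6 stood 5.45 and 10.7 times above its control mean, Il1f9 1.30 and 1.74 times and Il1f8 1.04 and 1.01 times.

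For the antagonist gene Il1f5, controls had 45.3, 36.7 and 34.9 FPKM and JunB dep replicates 0, 1 and 2 had 131.4, 36.9 and 42.02 FPKM. Apart from the library labelled JunB dep replicate 0 the groups overlapped, and the log2 fold change was 0.60 with it (interval -0.60 to 1.80, adjusted p = 0.722 from limma) and 0.02 without it (interval -0.42 to 0.46). For the receptor gene Il1rl2, controls had 9.83, 2.13 and 9.02 FPKM and the JunB dep mice 24.5, 6.48 and 5.90 FPKM. Control replicate 1 held the lowest value and the library labelled JunB dep replicate 0 the highest, and the log2 fold change was 0.70 (interval -1.11 to 2.52, adjusted p = 0.754 from limma), or 0.07 (interval -1.6 to 1.74) without that library. Without control replicate 1 it was 0.06, so either library moved the value.

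Il1a, the gene of the IL-1 form that keratinocytes keep preformed, had 5.25, 3.80 and 5.02 FPKM across controls and 40.7, 7.16 and 9.57 FPKM across JunB dep replicates 0, 1 and 2. Every JunB dep mouse was above every control, by a factor of at least 1.36. The log2 fold change was 1.51 (standard error 0.64, interval -0.04 to 3.07, adjusted p = 0.673 from limma), and 0.77 (interval 0.18 to 1.36, adjusted p = 0.422 from limma) without the library labelled JunB dep replicate 0.

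Il1b, the gene of the IL-1 form made after NF-κB activation and cut by caspase-1, showed the widest spread. Controls had 3.36, 3.30 and 2.72 FPKM, the library labelled JunB dep replicate 0 had 406 FPKM, and JunB dep replicates 1 and 2 had 1.28 and 2.59 FPKM. That library was 129.7 times the control mean, while the other JunB dep mice were below every control. The log2 fold change changed sign with it, from 1.85 (standard error 2.02, adjusted p = 0.761 from limma) to -0.63 (interval -1.39 to 0.14) without it. The 10 neutrophil markers in the table summed to 25033 FPKM in the library labelled JunB dep replicate 0, of which S100a8, also made by inflamed keratinocytes, gave 24456 FPKM while its partner S100a9 was listed at 0. They summed to 29.2 and 231.6 FPKM in JunB dep replicates 1 and 2 and to 1852, 40.6 and 195.8 FPKM in control replicates 0, 1 and 2. Mmp8 was listed at 0 in JunB dep replicate 1. Between the library labelled JunB dep replicate 0 and control replicate 0, the next highest in the sum, 6 of the 10 markers were higher in the former. Examples are Retnlg (418 against 18.6 FPKM) and Csf3r (44.3 against 3.70 FPKM). In the latter 4 were higher, such as Ngp (195.5 against 21.6 FPKM) and Camp (112.6 against 4.37 FPKM). These 4 include S100a9 through its listed 0, which can be a failed estimate. The 9 macrophage and monocyte markers in the table summed to 875 FPKM in the library labelled JunB dep replicate 0, to 96.1 and 243.8 FPKM in replicates 1 and 2, and to 508, 237.4 and 282.6 FPKM in controls, with none at 0. Their part in the Il1b values was not tested.

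Il1rn, the gene of the IL-1 receptor antagonist, had 32.9, 26.3 and 23.8 FPKM across controls and 143.4, 24.8 and 24.5 FPKM across JunB dep replicates 0, 1 and 2. The last values fall inside the control range. Its log2 fold change was 0.69 (adjusted p = 0.744 from limma), and -0.15 (interval -0.61 to 0.31) without the library labelled JunB dep replicate 0.

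Il18 and Il33, the remaining ligand genes, had lower mean log2 values in JunB dep skin. Il18, which keratinocytes express constitutively, had 52.7, 49.9 and 35.2 FPKM across controls and 38.8, 29.2 and 33.5 FPKM across JunB dep mice. The library labelled JunB dep replicate 0 held the highest value of 9 of the 10 genes, all but Il18, against 29.7% of tested genes. The log2 fold change of Il18 was -0.42 (standard error 0.21, interval -0.94 to 0.09, adjusted p = 0.720 from limma), and -0.53 (interval -1.09 to 0.04) without that library. JunB dep replicates 1 and 2 were below every control and replicate 0 was above control replicate 2. Il33, the gene of a nuclear alarmin, had 26.1, 23.2 and 13.9 FPKM across controls, 79.7 FPKM in the library labelled JunB dep replicate 0, and 4.96 and 10.9 FPKM in the other JunB dep mice. JunB dep mice thus held both the highest and the lowest values of Il33. Its log2 fold change was -0.29 (interval -2.66 to 2.08, adjusted p = 0.924 from limma) and -1.40 (interval -2.49 to -0.32, adjusted p = 0.428 from limma) without the library labelled JunB dep replicate 0. It turned positive without JunB dep replicate 1 (0.53) or replicate 2 (0.005), and was -0.56 to -0.11 without any 1 control.

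**Figure D2:**
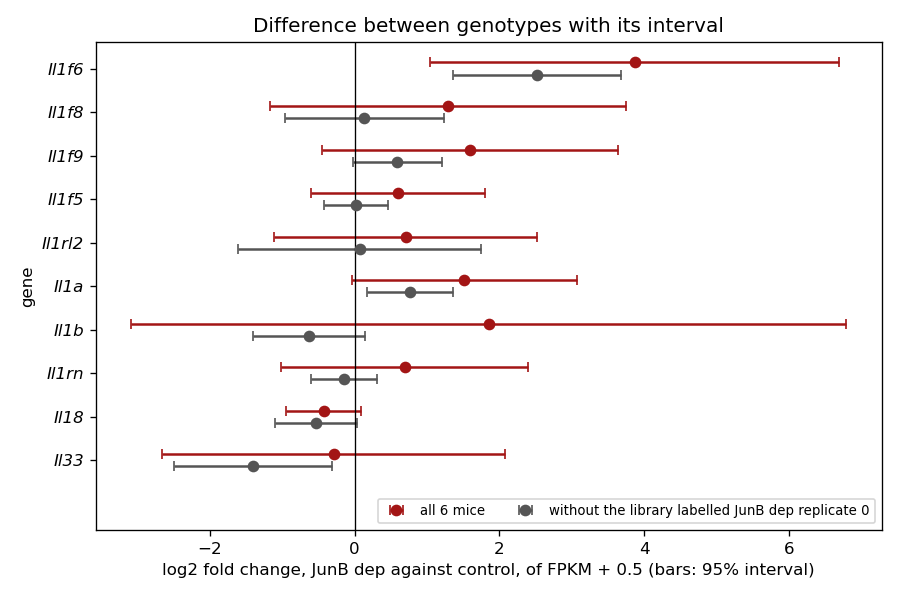
Log2 fold change of FPKM + 0.5 between JunB dep and control mice for each gene, with 95% intervals from limma, over all 6 mice and without the library labelled JunB dep replicate 0. The interval of Il1f6 lies above 0 in both fits, and the points of Il1b and Il1rn change sign.

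The sample names fall into a series beginning 23 (control replicates 0 and 1 and the library labelled JunB dep replicate 0) and a series beginning 27 (control replicate 2 and JunB dep replicates 1 and 2), and the labels do not say what the numbers mean. Within both series Il1f6, Il1f9, Il1a, Il1f5 and Il1rn were higher in every JunB dep mouse than in every control of that series, against 12.6% of tested genes, and Il18 was lower, against 13.2%. For Il1f6 the log2 difference was 6.55 in the series with 23 and 2.53 in that with 27. For Il1f9 it was 3.44 and 0.89, for Il1a 3.05 and 0.67, for Il1f5 1.68 and 0.17, for Il1rn 2.27 and 0.05, and for Il18 -0.40 and -0.17. Il1b, Il33, Il1f8 and Il1rl2 were higher in the first series and lower in the second, with differences of 6.73 and -0.46 for Il1b and of 1.67 and -0.87 for Il33. Each series holds 1 mouse of one of the genotypes, so it gives no test of its own.

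Agonists were also set against the antagonist of their branch within each mouse, as ratios of FPKM values and with no test. Il1f6, Il1f8 and Il1f9 together were at 0.628, 0.516 and 0.553 times Il1f5 in controls and at 3.00, 0.858 and 1.05 times Il1f5 in JunB dep replicates 0, 1 and 2. The ratio was higher in every JunB dep mouse. Il1a and Il1b together were at 0.262, 0.270 and 0.326 times Il1rn in controls and at 3.12, 0.340 and 0.496 times in JunB dep mice, again with every JunB dep mouse above the controls, in replicate 1 by little. Ratios between agonists of 1 branch were read the same way. Il1f8 was at 0.359, 0.156 and 0.424 times Il1f9 in controls and at 0.316, 0.248 and 0.180 times in JunB dep mice, which overlap. Il1f6 was at 0.0819, 0.0290 and 0.0704 times Il1f9 in controls and at 0.675, 0.259 and 0.378 times in JunB dep mice, with no overlap. Il1b was at 0.641, 0.871 and 0.542 times Il1a in controls, at 9.97 times in the library labelled JunB dep replicate 0, and at 0.178 and 0.271 times in replicates 1 and 2, so the JunB dep mice lay on both sides of the controls.

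**Figure D3:**
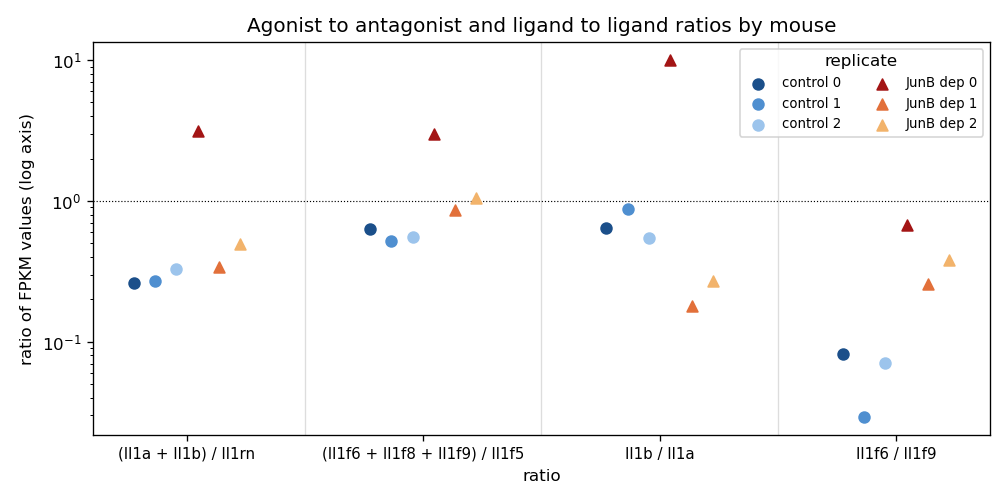
Ratios of FPKM values in each mouse on a log axis, with circles for controls, triangles for JunB dep mice and a dotted line at 1. The IL-36 agonist to antagonist ratio lies between 0.516 and 0.628 in controls and between 0.858 and 3.00 in JunB dep mice, while the ratio of Il1b to Il1a lies on both sides of the controls.

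Ordered by median FPKM, the controls held Il18 (49.9), Il1f5 (36.7), Il1rn (26.3), Il33 (23.2), Il1f9 (16.0), Il1rl2 (9.02), Il1f8 (5.49), Il1a (5.02), Il1b (3.30) and Il1f6 (0.910). The ranges of neighbours overlapped for Il18 and Il1f5, for Il1rn and Il33, for Il33 and Il1f9, for Il1rl2 and Il1f8 and for Il1f8 and Il1a. Il1f6 lay below Il1b, its neighbour, in all 3 controls with no overlap. In JunB dep mice the order by median was Il1f5, Il18, Il1f9, Il1rn, Il33, Il1f6, Il1a, Il1rl2, Il1f8 and Il1b, from 42.02 to 2.59 FPKM, and the ranges of all neighbours overlapped. The 9 genes other than Il1rl2 summed to 134.8 to 194.0 FPKM in controls, to 135.8 and 167.0 FPKM in JunB dep replicates 1 and 2, and to 1235 FPKM in the library labelled JunB dep replicate 0. Il1f6 made up 0.286% to 0.833% of that sum in controls and 10.8%, 4.0% and 6.38% in JunB dep replicates 0, 1 and 2. Il18 made up 26.1% to 30.8% in controls and 3.14%, 21.5% and 20.05% in the JunB dep mice. Il1b made up 32.9% in the library labelled JunB dep replicate 0 and at most 2.04% in every other mouse.

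The rest of the pathway was read from 4 hand-written lists, and no gene of any of them passed the test over all genes. Of 8 receptors and decoys, 5 had a higher mean log2 value in JunB dep skin and 3 a lower one, against 53.4% of tested genes with a higher value, and the median log2 fold change was 0.22. Without the library labelled JunB dep replicate 0, 3 of the 8 were higher, against 54.1% of tested genes, and the median was -0.17. Il1rl1, the IL-33 receptor, had 1.43, 1.62 and 0.856 FPKM across controls, 18.5 FPKM in the library labelled JunB dep replicate 0, and 0.707 and 1.33 FPKM in the other JunB dep mice. Il1r2, a decoy that binds IL-1 without signalling, had 92.4, 73.9 and 61.8 FPKM across controls and 57.8, 33.2 and 68.5 FPKM across JunB dep mice. It was more abundant per length than Il1r1, the signalling receptor, whose range was 8.43 to 11.8 FPKM across controls and 9.75 to 17.8 FPKM across JunB dep mice.

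Among 11 signalling genes 7 had a higher mean log2 value and 4 a lower one, with a median of 0.09, against the same 53.4%. Without that library 5 of the 11 were higher, against 54.1%, with a median of -0.03. Myd88 had 24.5, 23.7 and 21.3 FPKM across controls and 82.1, 22.4 and 30.1 FPKM across JunB dep replicates 0, 1 and 2, which overlap. Irak3, an inhibitor of the pathway, had 7.42, 5.35 and 7.08 FPKM in the first group and 21.7, 6.53 and 9.0 FPKM in the second, again with overlap. The kinase adaptor gene Tab3 was the 1 of 11 that lay above every control in all JunB dep mice, a share near the 5.62% of tested genes, with 2.45 to 2.64 FPKM across controls and 2.77 to 3.21 FPKM across JunB dep mice (log2 fold change 0.20, adjusted p = 0.735 from limma, and 0.20 also without the library labelled JunB dep replicate 0). Among 10 genes of cytokine processing 5 had a higher mean and 5 a lower one, with a median of 0.01, again against 53.4%. Without that library 2 of the 10 were higher, against 54.1%, with a median of -0.20. Nlrp3, the sensor of the inflammasome that matures IL-1β, had 0.212, 0.282 and 0.153 FPKM across controls, 10.2 FPKM in the library labelled JunB dep replicate 0 and 0.120 and 0.255 FPKM in replicates 1 and 2. Casp1 overlapped between the groups, at 16.8 to 28.7 and 17.4 to 35.1 FPKM. Ctss, a protease that cuts IL-36γ, had 39.6 to 62.1 FPKM across controls and 136.9, 12.02 and 37.9 FPKM across JunB dep mice. Elane, a neutrophil protease that can cut IL-1 family cytokines, was highest in control replicate 0, with 35.7 FPKM, and the library labelled JunB dep replicate 0 lists it at 0.

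Of 12 genes known as targets of IL-1 or IL-36 in epithelium, Csf2, Csf3 and Cxcl5 had control means below 0.1 FPKM and passed the filter on low values only through JunB dep mice, so they had to be higher there and are left out of the counts. The other 9 had a higher mean log2 value in JunB dep skin, with a median of 1.48, where 52.6% of the 16705 genes whose control mean passed the filter did. The library labelled JunB dep replicate 0 held the highest value of 8 of the 9, against 29.1% of those genes. Without that library 6 of the 9 had a higher mean, with a median of 0.54, against 54.1% of tested genes. Nfkbiz, Tnfaip3, Zc3h12a and Cxcl2, 4 of the 9, were higher in all 3 JunB dep mice than in every control, against 5.39% of the genes whose control mean passed. For Tnfaip3 this was nearly a tie, with 6.65 FPKM in JunB dep replicate 1 against 6.62 FPKM in control replicate 0. The control mean of Cxcl2, 0.105 FPKM, was only just above the filter of 0.1 FPKM. Nfkbiz, which encodes IκBζ, a mediator of IL-36 and IL-17 responses in keratinocytes, had 11.5, 9.90 and 10.5 FPKM across controls and 65.0, 13.1 and 22.2 FPKM across JunB dep replicates 0, 1 and 2 (log2 fold change 1.29, adjusted p = 0.681 from limma, and 0.66, adjusted p = 0.618, without the library labelled JunB dep replicate 0). The neutrophil chemokine gene Cxcl2 had 0.149, 0.0890 and 0.0781 FPKM across controls and 243.9, 0.279 and 0.926 FPKM across JunB dep mice. The separation of Cxcl2 in JunB dep replicates 1 and 2 was thus at levels below 1 FPKM. Cxcl1, a chemokine gene of the same kind, had 3.69, 2.13 and 2.56 FPKM across controls, 221 FPKM in the library labelled JunB dep replicate 0, and 0.722 and 1.84 FPKM in the other JunB dep mice, below every control. Il6 had 0.148, 0.266 and 0.175 FPKM across controls, 31.8 FPKM in that library and 0.0927 and 0.132 FPKM in the other JunB dep mice. Cxcl5 was listed at 0 in control replicate 2. Ccl20 was the target gene with another order, with its highest value of 9.43 FPKM in JunB dep replicate 2.

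**Figure D4:**
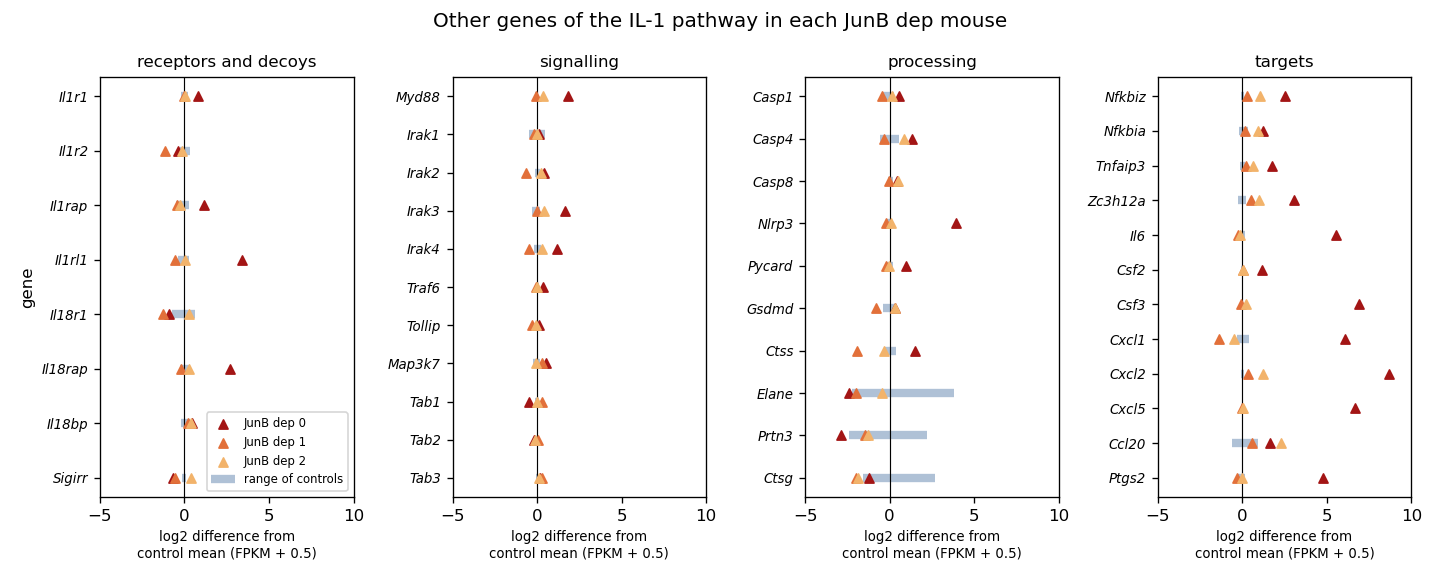
Log2 difference of FPKM + 0.5 from the control mean for each listed pathway gene, with a triangle for each JunB dep mouse and a bar for the range of the 3 controls. Replicate 0 lies far to the right for Cxcl2, Csf3, Cxcl5, Cxcl1 and Il6, well beyond replicates 1 and 2. Csf3 and Cxcl5 passed the filter on low values only through JunB dep mice, so they had to be higher there. For Nfkbiz and Zc3h12a all 3 triangles lie to the right of the bar.

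Genes were ranked by how closely their profile over the 6 mice matched that of Il1f6 or Il1a, by the Euclidean distance between log2(FPKM + 0.5) values centred on each gene's own mean. Nearest to Il1f6 were Prss27, a serine protease gene (distance 1.02), Serpinb12 (2.07), the chitinase-like gene Chil1 (2.15), Epgn, an EGF receptor ligand gene (2.27), and Rbp2, a retinol-binding protein gene (2.29). Prss27 had 2.04, 1.70 and 2.12 FPKM across controls and 164.6, 7.95 and 10.2 FPKM across JunB dep replicates 0, 1 and 2. Epgn had 7.74, 7.03 and 8.60 FPKM across controls and 151.4, 29.7 and 29.7 FPKM across JunB dep mice. Nearest to Il1a were Zc3h12a (0.155), which encodes an RNase that degrades cytokine transcripts, Slc10a6 (0.418), Stac2 (0.419), Slc37a2 (0.434) and the bacterial sensor gene Nod2 (0.463). Among the family, Il1f9 was closest to both, at rank 49 for Il1f6 and rank 33 for Il1a of 17020 genes. All distances rest on 6 values and weigh the library labelled JunB dep replicate 0 most.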

How the data were processed

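The FPKM values deposited by the authors, 1 column per mouse, were used as given. Per the methods and the submitters' processing notes, poly(A) RNA was sequenced with a stranded kit, and reads were checked with FastQC and aligned to mm9 with TopHat2 2.0.10, Bowtie 1.0.0 and SAMtools 0.1.19. The notes also name Cufflinks. No source used here states further scaling between libraries. Read counts were not analysed here.

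Genes whose mean over the 6 mice reached 0.1 FPKM were tested with limma 3.58.1 in R 4.3.3 on log2(FPKM + 0.5), with an intensity trend, genotype as the only term, two-sided tests and Benjamini-Hochberg adjustment at 0.05, after a test of the procedure on simulated data. With 3 mice against 3, an exact permutation test cannot go below p = 0.1, and the 10 genes gave 0.1 to 1. Below 0.15 FPKM, 14.2% to 17.4% of genes shared 1 ratio to control replicate 0 (log2, 3 decimals), by which scaling totals were 0.955 to 1.14 times that library. Median-ratio factors were 0.986 to 0.999.

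The members and lists were chosen with earlier results of these data known. Genes named are the members, Junb, Gm14023 and Gm14047, which overlap members, the listed pathway and marker genes, and the 5 genes nearest to Il1f6 and to Il1a. Ly6g and Adgre1 were listed but not found by symbol. Alternatives were pseudocounts, filters, scalings, no trend, a replicate block, the number series, and each mouse left out. Positions are from GENCODE vM1 on mm9, and promoters from RefSeq (GRCm38.p6 table). Python 3.11.15, pandas 2.3.3, scipy 1.17.1 and matplotlib 3.10.9 were used.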

Additional observations from a re-analysis of the deposited data

How the results depend on the processing

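No member and no listed pathway gene passed an adjusted p of 0.05 under any of the 15 alternatives, and 145 of 150 member values kept their direction. The exceptions were Il33, at 0.40 with the title number series as a covariate and between -1.40 and 0.53 when a mouse was left out, Il1b, between -0.63 and 3.29, and Il1rn, between -0.15 and 1.11, when a mouse was left out. The count of genes called, 235, was 0 with the number series (limma, unadjusted p below 0.05 in 446 higher and 1077 lower genes), and 0 to 254 when a mouse was left out. It was 0 without any 1 control or without JunB dep replicate 1 (unadjusted, 62 to 272 higher and 731 to 878 lower), and 135 without the library labelled JunB dep replicate 0. Correlations of deviations from the group mean were 0.12, -0.23 and -0.43 for mice of equal replicate number and -0.37 to 0.46 for the others. Deviations within a group of 3 sum to 0, so these correlations cannot decide whether the numbers pair the mice. With a replicate block the count of genes called was 0 (unadjusted, 118 higher and 854 lower) and Il1f6 was at an adjusted p of 0.301 from limma. The median over the 10 genes was 0.05 to 1.49 when a mouse was left out. The count of members above every control was 3, and 3 to 4 in leave-outs chosen after seeing the data, which could not lower it, with Il1f5 added without control replicate 0. Depth is unknown, so no counting error is given.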
